A study of Mus musculus with 21 samples.

Results

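The 7 genes described here encode the transcription factors of the dorsal forebrain neurogenic cascade: the basic helix-loop-helix (bHLH) factors Neurog1, Neurog2, Neurod1, Neurod2, Neurod6 and Bhlhe22, and the T-box factor Eomes (Tbr2). They were picked by symbol under a rule that uses no measured value, although earlier results of these data were known when the set was drawn up, and each matched 1 of the 23827 gene entries in every expression file. RNA was sequenced from mouse tissue at embryonic day 14.5 in 21 samples, 3 in each of 7 groups. All embryos carried Gt(ROSA)26Sor-mCherry-Rpl10a in heterozygous form, a knock-in from a single targeted embryonic stem cell clone in which the ubiquitous CAGGS promoter drives an mCherry-tagged ribosomal protein once Cre removes a stop cassette. Ribosome-bound RNA pulled down through the tag is called the translatome, and total RNA of the tissue the transcriptome.

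Embryos of genotype Sox2Cre+/-;Gt(ROSA)26Sor-mCherry-Rpl10a+/-, in which the tag was active throughout the embryo proper, gave the brain transcriptome and brain translatome from the same forebrain samples, and the kidney transcriptome and kidney translatome from the same kidney samples. Genotype Cdh5CreERT2+/-;Gt(ROSA)26Sor-mCherry-Rpl10a+/- with tamoxifen, which activates this Cre, gave the brain EC translatome and the kidney EC translatome of endothelial cells. Genotype Emx1Cre+/-;Gt(ROSA)26Sor-mCherry-Rpl10a+/- gave the Emx1-lineage translatome, that is, ribosome-bound RNA of cells that express Emx1 or descend from cells that did. Each forebrain sample pooled 2 organs, each whole-kidney sample 4 and each kidney EC sample 6, so no value belongs to a single embryo. The dissected brain tissue was forebrain with part of the diencephalon.

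Proneural bHLH proteins bind E-box DNA as dimers with the broadly expressed E-proteins (Tcf3, Tcf4 and Tcf12), and Id and Hes proteins oppose them. In the dorsal telencephalon, Pax6-expressing radial glia switch on the neurogenins Neurog1 and Neurog2 as they commit to the glutamatergic lineage, Eomes and Neurod1 follow in intermediate progenitors and newborn neurons, and Neurod2, Neurod6 and Bhlhe22 (also called Bhlhb5) are used in postmitotic cortical neurons. The ventral telencephalon instead uses the Dlx genes to make GABAergic neurons.

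The stretches upstream of 3 NeuroD genes are shown, those of Neurod1 and Neurod2 because E-boxes of the neurogenin and NeuroD type can be read in them, and that of Neurod6 as the most abundant member, in which none was found. For 6 of the 7 genes RefSeq (GRCm38.p6) gave the 250 bases before the gene start, and each window was searched on both strands for the letters CAGATG. The hexamer CATATG was searched in the same way. A further E-box, CAGCTG, was searched for comparison, and none of these hexamers can match at the position of another. The sequences run 5′ to 3′ on the minus strand, end where the first exon annotated there begins (for Neurod1, an exon of Cerkl), and have CAGATG or CATATG in capitals. The Neurod1 stretch is chr2:79456786-79456886, the Neurod2 stretch chr11:98329649-98329895 and the Neurod6 stretch chr6:55681264-55681513.
Neurod1: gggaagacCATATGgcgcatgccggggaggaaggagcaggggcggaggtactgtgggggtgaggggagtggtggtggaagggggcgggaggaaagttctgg
Neurod2: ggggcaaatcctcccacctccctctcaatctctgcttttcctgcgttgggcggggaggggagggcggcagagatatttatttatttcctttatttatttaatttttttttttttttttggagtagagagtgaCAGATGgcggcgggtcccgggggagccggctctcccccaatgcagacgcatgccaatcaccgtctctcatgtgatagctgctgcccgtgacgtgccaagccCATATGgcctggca
Neurod6: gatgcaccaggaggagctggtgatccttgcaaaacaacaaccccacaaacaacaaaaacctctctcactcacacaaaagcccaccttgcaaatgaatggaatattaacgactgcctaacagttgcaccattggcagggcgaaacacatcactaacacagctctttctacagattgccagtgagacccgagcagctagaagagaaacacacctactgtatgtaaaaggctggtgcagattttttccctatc
Neurod1 held 1 CATATG, beginning 242 bases before the RefSeq start. Its window, chr2:79456637-79456886, contains the different start that GENCODE gives for Neurod1 (79456751), from which the 242 bases are not counted. Neurod2 held 1 CAGATG at 118 bases and 1 CATATG at 17 bases before its start. Neither hexamer was found in the windows of Neurod6, Neurog1, Neurog2 and Eomes, and CAGCTG was in none of the 6. Among all 32851 RefSeq windows of 250 bases, CAGATG was present in 14.4%, CATATG in 3.46% and CAGCTG in 13.0%. These matches describe letters in a window and no binding was measured.

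In GENCODE vM21 (GRCm38), Neurog1 (NM_010896) lies on the minus strand at chr13:56250478-56252163 in 1 exon, and Neurog2 (NM_009718) on the plus strand at chr3:127633135-127635631 in 2 exons. Eomes (NM_010136 and NM_001164789) is on the plus strand at chr9:118478212-118486132, with 3 transcripts of 5 to 6 exons. Neurod1 (NM_010894, chr2:79452521-79456751), Neurod2 (NM_010895, chr11:98325415-98329648) and Neurod6 (NM_009717, chr6:55677822-55681263) are minus-strand genes of 2 exons each. Bhlhe22 (NM_021560) is a single-exon gene on the plus strand at chr3:18054174-18057517. Neurod1 is overlapped by Cerkl on the same strand and the lincRNA Gm26755 on the other, and the antisense gene Gm33460 overlaps Eomes. Use of strand in the counting is not given in the sources used here, so reads of these overlapping genes cannot be told apart from those of Neurod1 and Eomes.

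Between 21760652 and 79231692 reads were counted per sample. The labelled cell types could be read in their markers: the 9 endothelial markers summed to 3046 to 3196 RPKM (the authors' read level scaled by transcript length and library depth) in the brain EC translatome, 155 to 180 RPKM in the brain translatome and 13.9 to 16.0 RPKM in the Emx1-lineage translatome. Summed ventral forebrain markers stood at 316 to 342 RPKM in the brain translatome and 73.9 to 80.3 RPKM in the Emx1-lineage translatome. Sequencing lanes followed the groups in part. The Emx1-lineage libraries had a lane of their own, as did those of the brain EC and of the kidney EC translatome, and the brain translatome libraries shared theirs with brain transcriptome replicate 1.

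The neurogenins were present at very different levels. Neurog2, the principal proneural factor of cortical progenitors, measured 83.3, 79.4 and 77.6 RPKM in brain transcriptome replicates 1 to 3, 80.0, 74.2 and 74.6 RPKM in the brain translatome and 123, 128 and 115 RPKM in the Emx1-lineage translatome. Every Emx1-lineage sample lay above every whole-forebrain sample, while transcriptome and translatome overlapped. Neurog1, its partner in the same progenitors, measured 6.92, 6.00 and 6.17 RPKM in the transcriptome, 6.64, 5.54 and 6.08 RPKM in the translatome and 9.39, 10.8 and 8.83 RPKM in the Emx1-lineage translatome. It showed the same order of groups at a far lower level, with 282 to 506 reads per brain translatome library.

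Eomes, the marker of intermediate progenitors, measured 60.1, 60.5 and 57.9 RPKM in the brain transcriptome, 51.3, 55.0 and 50.5 RPKM in the brain translatome and 114, 111 and 113 RPKM in the Emx1-lineage translatome. Neurod1, which promotes neuronal differentiation in these cells, measured 28.5, 27.4 and 29.0 RPKM in the transcriptome, 19.7, 21.8 and 23.1 RPKM in the translatome and 43.6, 44.7 and 47.0 RPKM in the Emx1-lineage translatome. For both genes the 3 groups did not overlap, with the translatome lowest and the Emx1-lineage highest.

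Neurod6, the factor of postmitotic cortical pyramidal neurons also known as Nex, was the most abundant of the 7. It measured 180, 193 and 190 RPKM in the brain transcriptome, 207, 220 and 223 RPKM in the brain translatome and 486, 452 and 511 RPKM in the Emx1-lineage translatome, where its mean stood in place 56 of 20917 mRNA entries. Neurod2, which acts in the maturation of the same neurons, measured 109, 112 and 108 RPKM, then 120, 123 and 124 RPKM, and then 251, 241 and 259 RPKM in these groups. Bhlhe22, a repressor used in cortical area and projection neuron identity, measured 30.4, 33.2 and 34.9 RPKM in the transcriptome, 39.1, 41.6 and 47.4 RPKM in the translatome and 91.1, 85.5 and 89.8 RPKM in the Emx1-lineage translatome. In all 3 genes the translatome lay above the transcriptome and the Emx1-lineage above both, with no overlap. Here and elsewhere, the share of all entries whose groups do not overlap was not counted. Lack of overlap is therefore only a description of these genes.

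In order of mean RPKM, a measure per transcript length, the genes ran Neurod6, Neurod2, Neurog2, Eomes, Bhlhe22, Neurod1 and Neurog1 in the brain transcriptome, the brain translatome and the Emx1-lineage translatome alike. Neighbours in this order never overlapped in these 3 groups. The brain EC translatome kept the order of means, but there Neurod6 overlapped Neurod2, Neurod2 overlapped Neurog2 and Eomes overlapped Bhlhe22.

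**Figure D1:**
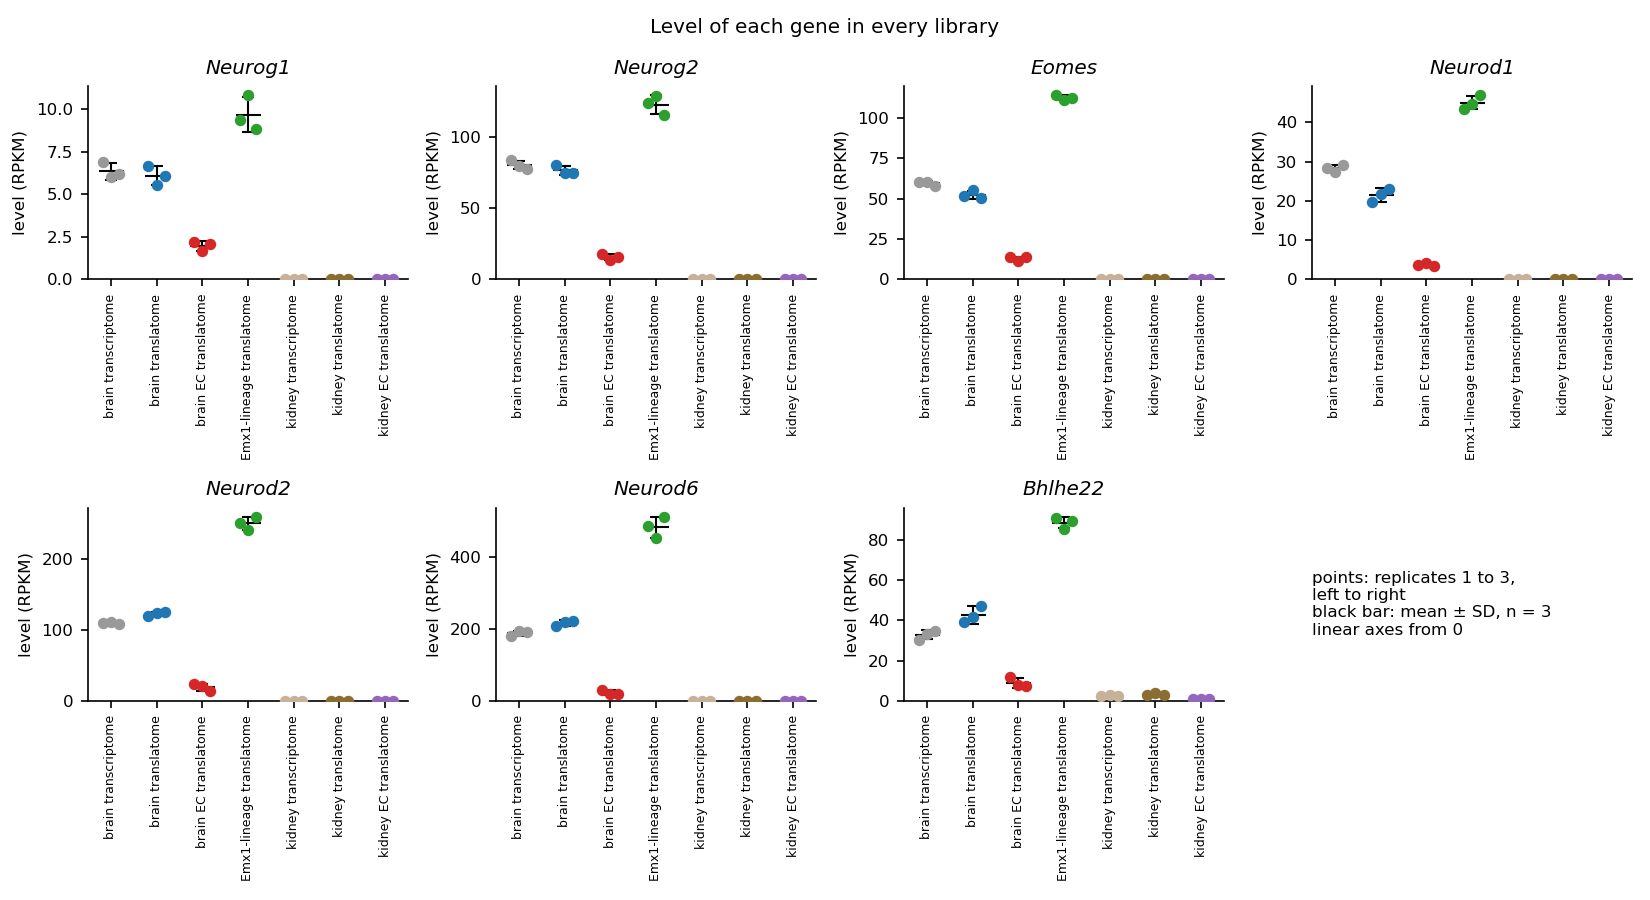
Level in RPKM (vertical axes, linear from 0) of each of the 7 genes in every library of the 7 groups; points are replicates 1 to 3 and black bars the mean ± SD (n = 3). The Emx1-lineage points are the highest in each panel, the brain EC points are low, and only Bhlhe22 is visibly above 0 in kidney.

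The comparison of the Emx1-lineage translatome with the brain translatome asks which transcripts the dorsal lineage holds in excess of the whole forebrain. All 7 genes were enriched in the Emx1-lineage at adjusted p under 0.001 by edgeR's quasi-likelihood test, where 9.2% of the 19006 entries tested were called higher. The later members of the cascade had log2 fold changes between 1.08 and 1.21. Neurod6 was 2.32-fold higher (log2 fold change 1.21 ± 0.05 (SE), adjusted p = 1.9e-10), Eomes 2.24-fold (1.16 ± 0.05, adjusted p = 4.09e-11) and Neurod1 2.18-fold (1.12 ± 0.06, adjusted p = 1.26e-09). Bhlhe22 was 2.16-fold higher (1.11 ± 0.06, adjusted p = 2.71e-09) and Neurod2 2.12-fold (1.08 ± 0.05, adjusted p = 9.67e-11). The neurogenins had the smallest differences, at 1.66-fold for Neurog2 (log2 fold change 0.73 ± 0.05, adjusted p = 1.71e-08) and 1.64-fold for Neurog1 (0.71 ± 0.09, adjusted p = 2.08e-05). Their 95% intervals of the log2 fold change, 0.64 to 0.83 and 0.53 to 0.90, lay below those of the other 5 genes. Among the 1749 entries called higher, ordered by fold change, Neurod6 took place 49, Eomes 58, Neurod1 67, Bhlhe22 69, Neurod2 77, Neurog2 253 and Neurog1 271. The median log2 fold change of the 7 was 1.11, against 0.003 over all entries tested. Neurod6, Neurod2, Eomes and Neurod1 also stand in the study's own list of abundant Emx1-enriched transcripts, which was drawn from these samples and is not independent evidence of their direction. The study also looked up its listed transcripts in a separate atlas of embryonic expression patterns (Eurexpress). It judged part of them clearly enriched in the Emx1-lineage, and its result for each of these genes is not reported here. In bulk samples such as these, more cells of a type and more RNA per cell cannot be told apart, and group cannot be told apart from lane.

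**Figure D2:**
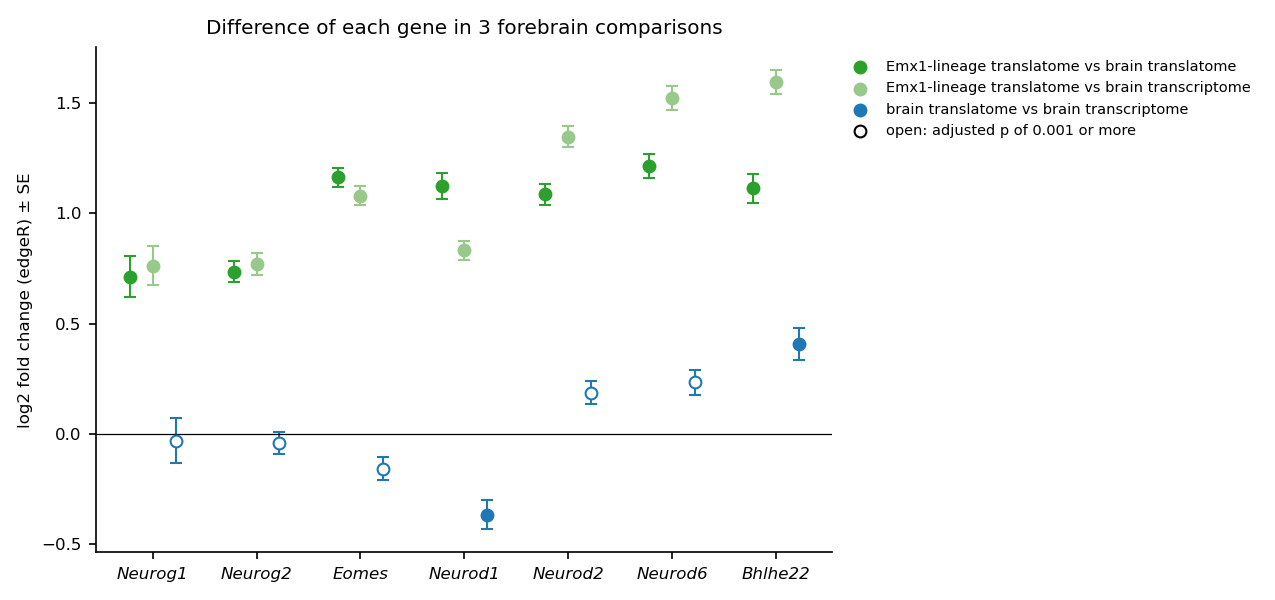
Log2 fold change ± SE from edgeR (vertical axis) of the 7 genes in 3 forebrain comparisons, which share samples; filled points passed adjusted p under 0.001. Against the brain translatome the Emx1-lineage values lie between 0.71 and 1.21, and the translatome-to-transcriptome values between -0.37 and 0.41.

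Most regulators upstream of the cascade were enriched in the same comparison. Of 5 dorsal forebrain upstream regulators, 4 rose and 1 was not called, with a median log2 fold change of 0.69. Emx1 itself, the gene whose locus drives Cre here, rose by 0.96 ± 0.06 on the log2 scale (adjusted p = 5.09e-09), Lhx2, a selector of cortical identity, by 0.79 ± 0.05 (adjusted p = 3.83e-09) and Pax6, an activator of Neurog2, by 0.52 ± 0.05 (adjusted p = 1.78e-06). The general neural progenitor factor Sox2 was not called, with a log2 fold change of -0.09.

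Among 9 genes known as neurogenin targets or followers in the cascade, 5 rose, 1 fell and 3 were not called, with a median log2 fold change of 0.38. Tbr1, the T-box factor that succeeds Eomes in deep-layer neurons, rose by 1.13 ± 0.05 (adjusted p = 1.27e-10), in the range of the NeuroD genes, and it is in the study's list as well. Rnd2, a small GTPase used in the migration of newborn neurons, rose by 0.59 ± 0.06 (adjusted p = 2.24e-06). Hes6 was not called, with a log2 fold change of 0.01. Cdkn1c, a cell cycle inhibitor, fell by 0.48 on the log2 scale (adjusted p = 2.8e-07). Its mean was 198 RPKM in the brain EC and 97.4 RPKM in the brain translatome. Of the 9 genes, 2 were called higher in the brain EC than in the brain translatome, as were 4740 of all 19103 entries. Of these 2 only Cdkn1c fell in the Emx1-lineage, and the part of endothelial RNA in its fall was not tested.

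The other bHLH factors did not move as a block. Of 9 relatives outside the cascade, 2 rose, 4 fell and 3 were not called, one of the latter being Atoh1 with 2 reads or fewer in every library of both groups. Nhlh1, expressed in newborn neurons, rose by 0.55 ± 0.09 (adjusted p = 0.000156), and Olig2, a ventral progenitor and oligodendrocyte factor, had a log2 fold change of -0.93 ± 0.09 (adjusted p = 6.91e-07). Of the 3 E-protein partners, Tcf4 rose by 0.69 ± 0.06 (adjusted p = 2.63e-07) and Tcf3 by 0.28 ± 0.05 (adjusted p = 0.00031), and Tcf12 was not called. The 8 bHLH inhibitors divided into 3 that rose, 2 that fell and 3 that were not called. Id2 rose by 0.84 ± 0.08 (adjusted p = 6.19e-07), while Id3 had a log2 fold change of -1.12 ± 0.10 (adjusted p = 4.18e-07). The mean of Id3 was 326 RPKM in the brain EC and 53.5 RPKM in the brain translatome. Of the 8 inhibitors, 4 were called higher in the brain EC than in the brain translatome, and some of these rose in the Emx1-lineage. The part of endothelial RNA in these differences was not tested.

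Markers of cells outside the lineage fell together in the Emx1-lineage translatome, where 2442 of the 19006 entries tested were called lower. All 10 ventral forebrain markers were lower, with a median log2 fold change of -1.99, among them Dlx1 at -1.97 and Dlx2 at -1.92. All 5 thalamus markers (median -1.37), all 9 endothelial markers (median -3.93) and all 3 microglia markers (median -4.27) were lower as well. Of 6 pan-neural markers, 1 rose, 2 fell and 3 were not called, with a median of 0.02, and of 4 Cajal-Retzius markers 2 rose and 2 fell. None of the 8 kidney markers rose, 3 fell and 5 were not called. Their part in the members' differences was not tested.

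**Figure D3:**
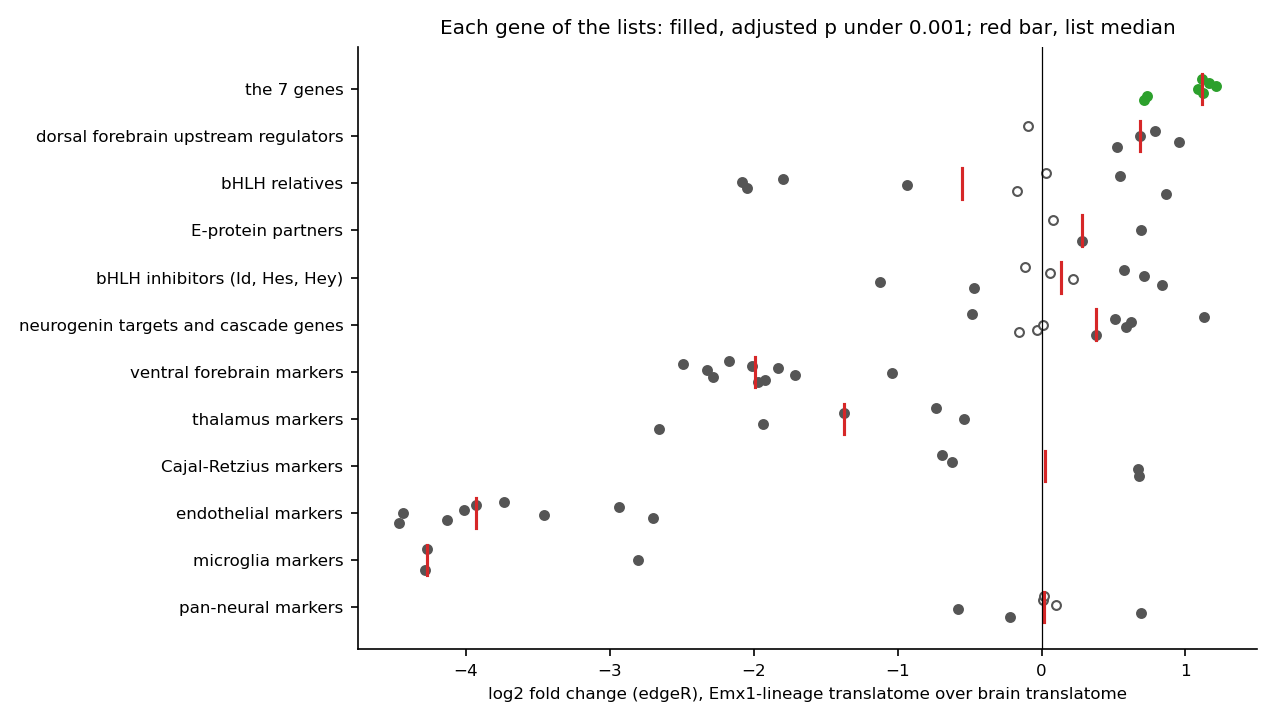
Log2 fold change (horizontal axis, edgeR, Emx1-lineage over brain translatome) of each gene in the 7-gene set and the comparison lists; filled points passed adjusted p under 0.001, red bars are list medians, and genes with at most 3 reads in any library of both groups (Atoh1) are not drawn. All 7 cascade genes lie right of 0, and all ventral, thalamus, endothelial and microglia markers left of it.

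A ratio between genes within a library does not depend on how libraries are scaled, and Neurod6 was used as the reference. Neurog2 stood at 33.5% to 38.7% of the Neurod6 RPKM in the brain translatome and at 22.5% to 28.4% in the Emx1-lineage translatome, a log2 difference of -0.48 ± 0.12 (SE). Neurog1 stood at 2.52% to 3.21% and 1.73% to 2.40%, a log2 difference of -0.49 ± 0.17. In both neurogenins the groups did not overlap, at an exact two-sided permutation p of 0.1, the smallest that 3 against 3 samples allow. Neurod2 moved less, from 55.9% to 58.0% of Neurod6 down to 50.6% to 53.2% (log2 difference -0.13 ± 0.03, no overlap, exact permutation p = 0.1). Neurod1, Eomes and Bhlhe22 overlapped between the groups, with log2 differences of -0.09 ± 0.06 (exact permutation p = 0.2), -0.05 ± 0.07 (exact permutation p = 0.5) and -0.10 ± 0.07 (exact permutation p = 0.2). Relative to Neurod2 in place of Neurod6, the differences of Neurod1, Eomes and Bhlhe22 were positive. With these 6 genes compared in each of a pair of group comparisons, no such p could pass 0.05 before or after adjustment.

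**Figure D4:**
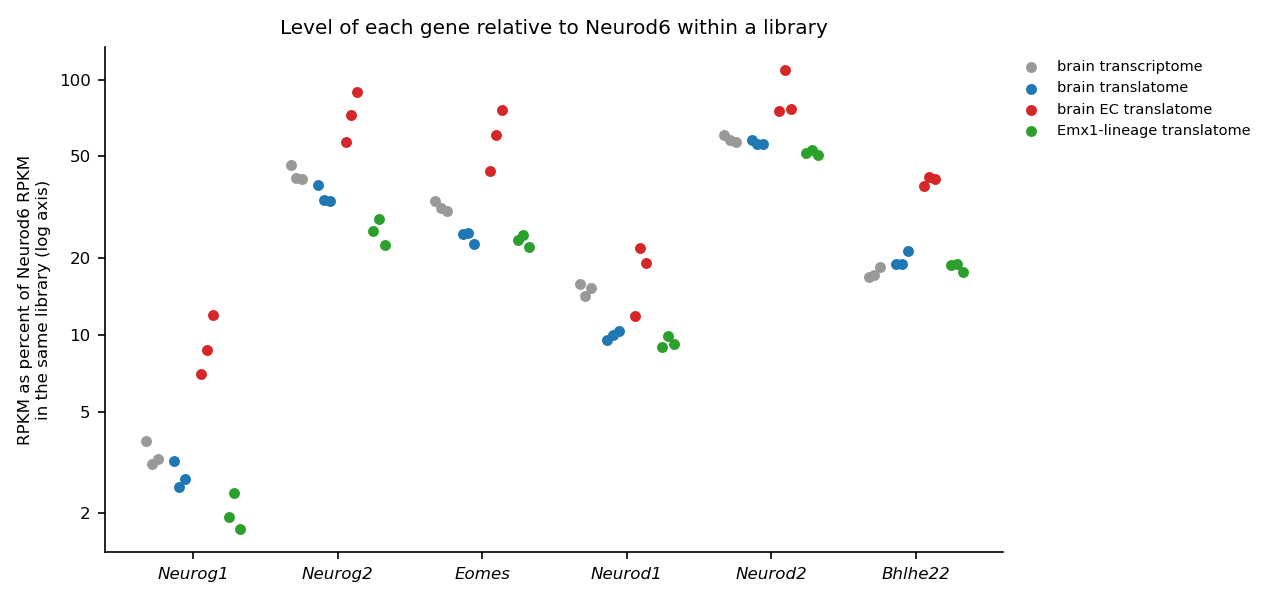
RPKM of 6 genes as a percent of the Neurod6 RPKM in the same library (vertical axis, log scale) in the 4 forebrain groups; each point is 1 library. The 2 neurogenins sit lower in the Emx1-lineage than in the brain translatome, and the brain EC points are the highest for each gene except Neurod1, where replicate 1 lies at 11.8%.

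The brain translatome was compared with the brain transcriptome of the same tissue samples to ask how far ribosome-bound RNA follows total RNA. Of the 7 genes 1 was called higher, where 18.6% of all 19446 entries were, and 1 lower, where 18.5% were. Bhlhe22 was 1.33-fold higher in the translatome (log2 fold change 0.41 ± 0.07, adjusted p = 0.000226) and Neurod1 1.29-fold lower (-0.37 ± 0.07, adjusted p = 0.000246). The other 5 did not pass: Neurod6 had a log2 fold change of 0.23 ± 0.06 (adjusted p = 0.00283), Neurod2 of 0.19 ± 0.05 (adjusted p = 0.00678) and Eomes of -0.16 ± 0.05 (adjusted p = 0.0155). With the shared tissue sample as a replicate block, Neurod6 passed at the same log2 fold change of 0.23 (adjusted p = 0.000245) and the count became 3. With that block 4500 of the 19446 entries were called higher and 4433 lower. The neurogenins were near 0, with 95% intervals of -0.14 to 0.06 for Neurog2 and -0.23 to 0.17 for Neurog1. Neurod1 and Bhlhe22 were near the threshold. Over all left-out replicates their log2 fold changes ranged from -0.42 to -0.34 and from 0.32 to 0.46. Without brain transcriptome replicate 1 neither passed, at -0.36 for Neurod1 (adjusted p = 0.00134) and 0.35 for Bhlhe22 (adjusted p = 0.00158). That replicate alone shared a lane with the translatome. Set against it as a single library, a choice made after seeing the data, the log2 fold changes were -0.39 and 0.50, given as values without a test.

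Relative to Neurod6 in the same library, the earlier genes stood lower in the translatome than in the transcriptome. These ratios also carry the difference of Neurod6 itself, which had a log2 fold change of 0.23 by edgeR. Neurog1 and Neurog2 had -0.03 and -0.04 there, so a lower ratio does not mean a lower level of the gene itself. Neurod1 made up 14.2% to 15.8% of Neurod6 in transcriptome libraries and only 9.52% to 10.3% in those of the translatome (log2 difference -0.60 ± 0.06), and Eomes 30.5% to 33.4% and 22.7% to 25.1% (-0.39 ± 0.06). For Neurog2 the values were 40.8% to 46.2% and 33.5% to 38.7% (-0.28 ± 0.09), and for Bhlhe22, in the other direction, 16.9% to 18.4% and 18.9% to 21.3% (0.17 ± 0.07). None of these 4 overlapped between the groups (exact permutation p = 0.1 for each). Neurog1 (-0.27 ± 0.14, exact permutation p = 0.2) and Neurod2 (-0.05 ± 0.03, exact permutation p = 0.3) overlapped. Taken within the 3 shared tissue samples, a pairing added after seeing the data, the translatome was nonetheless lower in 3 of 3 pairs for both, with log2 differences of -0.26, -0.30 and -0.25 for Neurog1 and of -0.07, -0.05 and -0.03 for Neurod2. All 6 genes kept 1 direction over the pairs, at an exact paired permutation p of 0.25, the smallest that 3 pairs allow.

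Set against the brain transcriptome in place of the translatome, the Emx1-lineage translatome again held all 7 genes at a higher level, where 25.4% of the 19471 entries tested were called higher. The log2 fold changes were 1.59 ± 0.06 for Bhlhe22 (adjusted p = 2.42e-12), 1.52 ± 0.06 for Neurod6 (adjusted p = 3.24e-12) and 1.35 ± 0.05 for Neurod2 (adjusted p = 2.51e-12). Eomes followed at 1.08 ± 0.04 (adjusted p = 1.25e-11), Neurod1 at 0.83 ± 0.04 (adjusted p = 1.94e-10), Neurog2 at 0.77 ± 0.05 (adjusted p = 1.45e-09) and Neurog1 at 0.76 ± 0.09 (adjusted p = 1.52e-06). The comparisons share the Emx1-lineage samples, so the values stand side by side: Neurod1 had 1.12 against the translatome and 0.83 against the transcriptome, and Bhlhe22 had 1.11 and 1.59. Scaling by library totals in place of composition factors put the median log2 fold change of all entries at -0.21 in place of -0.06, and all 7 genes were still called higher.

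All 7 genes were depleted in the brain EC translatome, which is drawn from endothelial cells, and all remained readable in it. The level of Neurod6 fell from 207 to 223 RPKM in the brain translatome to 30.9, 18.9 and 17.6 RPKM in EC replicates 1 to 3, and that of Neurod2 to 23.3, 20.6 and 13.5 RPKM. Neurog2 measured 17.6, 13.7 and 15.8 RPKM, Eomes 13.6, 11.4 and 13.5 RPKM and Bhlhe22 11.8, 7.83 and 7.18 RPKM. Neurod1 was at 3.65, 4.15 and 3.38 RPKM and Neurog1 at 2.18, 1.64 and 2.10 RPKM. No EC sample overlapped a brain translatome sample in any of the 7 genes, and EC replicate 1 was the highest of the 3 in every gene except Neurod1. By edgeR's quasi-likelihood test 7 of 7 were lower, where 21.4% of the 19103 entries tested were, with log2 fold changes from -1.33 ± 0.14 for Neurog1 (adjusted p = 1.37e-06) to -2.98 ± 0.17 for Neurod6 (adjusted p = 4.17e-09).

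As a share of the brain translatome RPKM, the EC translatome kept 32.4% ± 4.7 (SD, n = 3) of Neurog1, 24.5% ± 2.3 of Eomes, 20.9% ± 5.8 of Bhlhe22 and 20.6% ± 2.6 of Neurog2. It kept 17.3% ± 1.8 of Neurod1, 15.6% ± 4.1 of Neurod2 and 10.4% ± 3.4 of Neurod6. RPKM carries no composition factors, so these shares are lower than the edgeR folds, which were 0.396 for Neurog1 and 0.127 for Neurod6. The shares of Neurog1 and Neurod6 did not overlap, at 27.0% to 35.8% and 8.15% to 14.3%. The median over the 7 was 20.6%, beside 22.2% over the 6 pan-neural markers, 20.3% over the 10 ventral forebrain markers and 26.4% over the 5 dorsal upstream regulators. Endothelial markers stood at 1431% to 2227% in the same libraries. The part of RNA from neural cells in the EC levels was not tested.

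**Figure D5:**
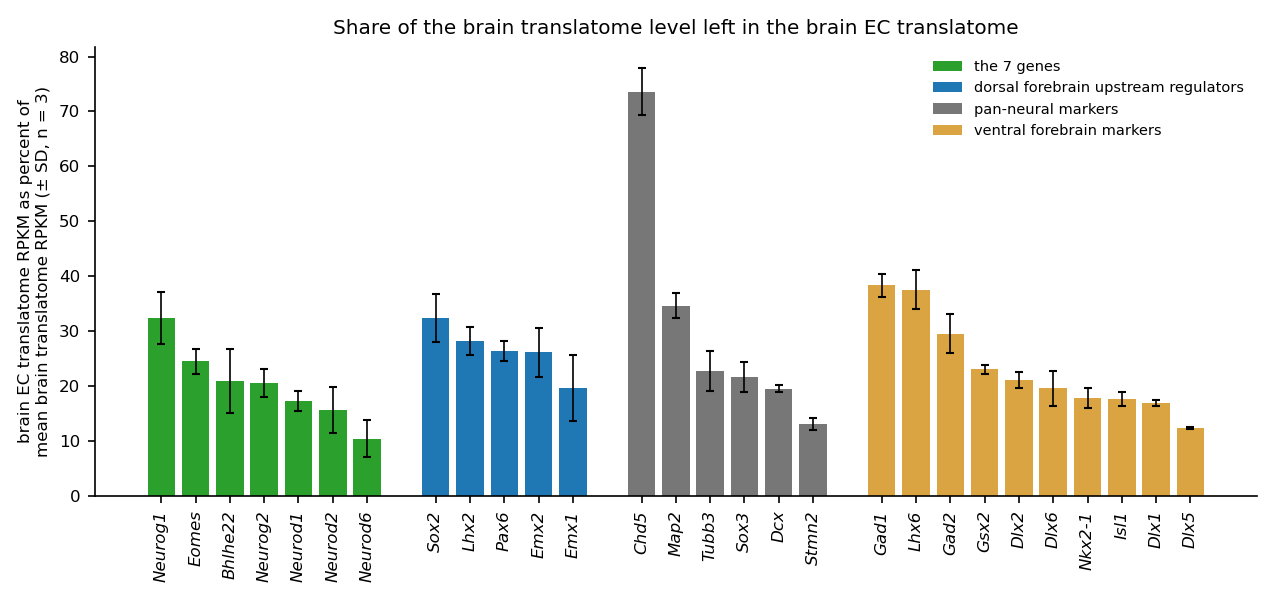
Brain EC translatome RPKM as a percent of the mean brain translatome RPKM (vertical axis, linear from 0; bars are means and error bars the SD of the 3 EC replicates) for the 7 genes, dorsal upstream regulators, pan-neural markers and ventral forebrain markers. The 7 genes run from 32.4% for Neurog1 down to 10.4% for Neurod6. That mean lies under the lowest mean of the other lists drawn (Dlx5, 12.3%). The replicates of Neurod6, at 8.15% to 14.3%, overlap those of Dlx5, at 12.1% to 12.5%.

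In kidney, which has no forebrain neurogenesis, 6 of the 7 genes were at or near 0 and Bhlhe22 was not. Neurog1 had 0 reads in all 9 kidney libraries, which against a floor of 3 reads per library puts the brain translatome at least 78.4-fold higher than the kidney translatome. Neurod2 and Neurod6 had 0 reads in the 3 kidney transcriptome libraries, for a brain translatome level at least 5021-fold and 6093-fold higher than that floor. In the kidney translatome, the like-for-like comparison, Neurod2 had 9, 21 and 0 reads and Neurod6 21, 20 and 1, at means of 0.134 and 0.271 RPKM beside 122 and 217 RPKM in the brain translatome. Neurod1 had 0 to 3 reads per kidney library, Neurog2 0 to 14 and Eomes 1 to 16. Bhlhe22 had 362, 394 and 248 reads in the kidney transcriptome (2.23, 3.05 and 2.50 RPKM), 212, 278 and 202 reads in the kidney translatome (2.72, 3.69 and 2.92 RPKM) and 143, 67 and 108 reads in the kidney EC translatome (1.01, 0.641 and 0.823 RPKM). Its kidney EC values lay below all values of both whole-kidney groups, which overlapped each other.

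All 7 genes were called higher in the brain than in the kidney translatome, where 27.2% of the 19241 entries tested were, and Bhlhe22 had a log2 fold change of 3.98 (adjusted p = 7.75e-13). The fitted log2 fold changes of the other 6, from 8.91 to 11.31, depend on the prior count set on near-empty libraries. The few kidney reads of these 6 genes were uneven: kidney translatome replicates 1 and 2 held 50 and 74 of them, replicate 3 held 4, the kidney transcriptome libraries 7 to 13 and the kidney EC libraries 3 to 9. Replicates 1 and 2 were sequenced in a lane with brain transcriptome replicates 2 and 3, and the other 7 kidney libraries in lanes without brain libraries. The part of that lane in these reads was not tested. In kidney translatome replicate 3, taken on its own after seeing the data, the 6 genes had 0 to 2 reads each and Bhlhe22 had 2.92 RPKM.

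The genes outside the set whose level followed each member most closely were sought by Pearson's r of log2(RPKM + 1) over all 21 samples. The search covered 11514 mRNA entries and left out the 7 members themselves. Pax6 (r = 0.9997), Nr2e1 and Snap25 came first for Neurog2, and the same 3 genes for Eomes (Pax6, r = 0.998). Fezf2, a selector gene of subcerebral projection neurons, led for Neurod6 (r = 0.9994) and Neurod2 (r = 0.9988), with Mmd2 second for both. Otx1 led for Neurog1 (r = 0.9987), followed by Rlbp1 and Sox3, and Zfp238 led for Neurod1 (r = 0.9976), followed by Unc5d and Otx1. Bhlhe22, the only member read in kidney at more than trace level, had Emx1 (r = 0.9955), Kcnh3 and Kcng1. After these came Rlbp1 for Neurod6 and Nr2e1 for Neurod2. At a pseudocount of 0.1 in place of 1, Fezf2 was not among the first 3 for Neurod6 and stood second to Nr2e1 for Neurod2. The points share tissue and library, and forebrain and kidney samples stand far apart in all 7 genes. Over the 12 forebrain samples alone, a choice made after seeing the data, Fezf2 still led for Neurod6 (r = 0.9988) and Neurod2 (r = 0.997) and Zfp238 for Neurod1 (r = 0.9968), while Nr2e1 led for Neurog2 (r = 0.9982) ahead of Masp1 and Pax6. For the other 3 members none of the first 3 genes was kept: Tfap2c led for Neurog1 (r = 0.9921), Kcnn2 for Eomes (r = 0.9973) and Wnt7b for Bhlhe22 (r = 0.9947). Among the 7 members themselves, r over these 12 samples ran from 0.953 for Neurod1 with Bhlhe22 to 0.997 for Neurod2 with Neurod6. In all 7 genes the brain EC samples lay below and the Emx1-lineage samples above the other forebrain samples. The r over 12 samples therefore also follow these group levels.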

How the data were processed

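The deposited counts are the reads per gene of RUM (v. 2.04) alignments to GRCm38 (mm10), which the authors made with the program rpkmforgenes on the UCSC refGene annotation, and the deposited RPKM values are theirs from the same program. Samples were grouped by their labels, and none was left out. The 7 genes, the comparison lists and the tests were chosen with earlier results of these data known. Each pair of groups was fitted alone with edgeR 4.0.16 (R 4.3.3, TMM factors, quasi-likelihood test, no block) over every entry with at least 1 count, with Benjamini-Hochberg adjustment over all of them and the study's threshold of 0.001. Gene lists are described by counts and medians, without a test. Named genes are the 7 members and, of each list, at most the 4 with the highest mean RPKM in the brain translatome (endothelial and microglia markers in the brain EC, kidney markers in the kidney translatome). For each member they are also the 3 most alike of the mRNA entries outside the 7 with a mean of at least 5 RPKM in a group. Atoh1 alone was named outside this rule, after its values were seen, and a list gene that falls under it is not reported here. Ratios to Neurod6 were compared by exact permutation tests (scipy 1.17.1). Same-numbered brain translatome and transcriptome samples came from the same tissue, and their deviations from group means correlated at 0.479 to 0.548. Replicates were separate tissue pools. Totals of 21760652 to 79231692 counts per sample set the precision, and the kidney floors cover counting error only. Alternatives were RLE factors, library totals, DESeq2 1.42.0, a minimum of 10 counts in 3 samples, a replicate block, 1 fit of all 21 samples, a threshold of 0.05 and leaving out each replicate. The scripts were tested on simulated data.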

Additional observations from a re-analysis of the deposited data

How the results depend on the processing

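In 4 of the 5 comparisons all 7 genes were called under every alternative, one of them a lone kidney translatome library assumed to vary like the others. Between brain translatome and transcriptome the count of 2 became 4 with DESeq2, where 3816 of the 19446 entries were called higher and 3988 lower. It became 5 at an adjusted p under 0.05, where 5394 were called higher and 5461 lower. With the replicate block it became 3, where 4500 and 4433 were called. It was 0 in 1 fit of all 21 samples, and 0 to 2 when a replicate was left out, the 0 without brain transcriptome replicate 1. There the log2 fold change of Neurog1 turned to 0.058 and that of Neurog2 to 0.048 in the fit of 21 samples, and Neurog1 ranged from -0.132 to 0.035 over left-out replicates. With Neurod2 as the reference gene, the Emx1-lineage differences became 0.039 for Neurod1, 0.078 for Eomes and 0.03 for Bhlhe22. The cause was not tested. Entries called higher in the Emx1-lineage over the brain translatome, 1749, became 1164 with at least 10 counts in 3 samples, 1116 with the replicate block, 4278 at 0.05 and 1110 to 1138 without Emx1-lineage replicate 2 or 1; the 2442 called lower became 4302 at 0.05. In the translatome to transcriptome comparison the fit of 21 samples gave 4316 called higher and 2994 called lower, against 3625 and 3596 before. Library totals in place of composition factors gave 1183 higher and 2778 lower for Emx1-lineage over brain translatome, 3802 and 5801 (4952 and 4641 before) over transcriptome, 3397 and 6002 (4740 and 4084) for brain EC, and 4322 and 6122 (5233 and 5039) for brain over kidney, with medians of all entries at -0.21, -0.30 and -0.20 in the last 3. The replicate block changed no other call on the 7 genes; outside the translatome to transcriptome pair, numbers mark no shared tissue, with same-numbered correlations from -0.061 to 0.278. Of the genes most like each member, the set of 3 changed for 6 of 7 at a pseudocount of 0.1. Groups of 3 samples allow no exact p under 0.1.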
